A study of Mus musculus with 4 samples.

Results

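The genes described are those of the proteasome, the cylinder-shaped protease that degrades proteins tagged with ubiquitin. They were taken as all probes whose platform symbol names an alpha, beta, ATPase or non-ATPase subunit (Psma, Psmb, Psmc, Psmd with a number) or an activator (Psme1 to Psme4), without Psmb8, and with a detection p under 0.01 on at least 1 array. Of 59 probes with such a symbol, for 39 genes, 50 probes for 37 genes met the detection limit, among 26512 probes on the array and 8383 genes detected on at least 1 array. The lowest detection p of the 50 probes was 0 for each, and the nearest probes left out were those of Psmd9 and Psme4 at 0.0331 and 0.0471, both genes that kept another probe. Psma1 and Psma6 had only 1 probe each, undetected throughout, so 37 of 39 genes could be described.

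The arrays were Illumina mouse BeadChips hybridised with total RNA from samples labelled thyroid of Balb/c mice in a series on iodine-131 (131I), a beta-emitting radionuclide that the thyroid takes up. The 4 samples had absorbed doses of 0, 0.85, 8.5 and 17 Gy, all at 24 h, and the design names normal Balb/c thyroids as the source of the RNA. Each dose had 1 array, so no difference below has a replicate check, an error or a p-value, and all comparisons with 0 Gy share the same array. The labels do not state how many mice stood behind a sample.

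The 20S core of the proteasome is a stack of rings, with alpha subunits outside that gate the channel and beta subunits inside, some of which carry the proteolytic sites. The 19S regulatory particle caps the core: its ATPases unfold and translocate the substrate, and its non-ATPase subunits bind and remove ubiquitin. Interferon gamma induces replacement beta subunits, which form the immunoproteasome, and the activator subunits encoded by Psme1 and Psme2, which alter the peptides supplied to MHC class I. Brown fat is known to need proteasome activity, under control of the transcription factor encoded by Nfe2l1.

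The labelled tissue was checked against defining markers. Of 10 thyrocyte markers with a probe, 1, the thyrotropin receptor gene Tshr, was detected, and Tg, Slc5a5, Pax8, Nkx2-1, Foxe1, Duox2, Dio1, Iyd and Slc26a4 were undetected on all 4 arrays. All 7 fat markers were detected on at least 2 arrays. Of 11 skeletal muscle markers, 1 was detected at 0 Gy, 2 at 0.85 Gy, 10 at 8.5 Gy and 6 at 17 Gy, with summed bead intensities of 1007, 1196, 126373 and 1380. Of 8 salivary gland markers, 8 were detected at 17 Gy and at most 1 on each other array. In bulk RNA, fewer cells of a type and less RNA per cell cannot be told apart. The part of these tissue differences in the proteasome values was not tested. The mean background of each array, estimated through its detection p-values, was 86.0, 101, 97.2 and 88.5 units of bead intensity for 0, 0.85, 8.5 and 17 Gy.

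The promoters of 3 genes are shown because they belong to the genes on which the comparison of inducible and constitutive subunits and of the beta ring turns: Psmb9, an inducible beta subunit, Psmb6, the constitutive subunit it replaces, and Psmb3, the beta ring gene farthest from 0 Gy at 0.85 Gy. Each line gives the 250 bases before the gene start, 5′ to 3′ on the gene's strand, from RefSeq (GRCm38.p6). Psmb9 lies at chr17:34187331-34187580 on the minus strand, Psmb6 at chr11:70525107-70525356 on the plus strand and Psmb3 at chr11:97703184-97703433 on the plus strand. Capitals mark letters that match, on either strand, CCAAT (bound by NF-Y), TGACNNNGC (a form of the antioxidant response element), GAAANNGAA (a form of the interferon-stimulated response element) or TTCNNNGAA (a form of the gamma-activated site).
Psmb9: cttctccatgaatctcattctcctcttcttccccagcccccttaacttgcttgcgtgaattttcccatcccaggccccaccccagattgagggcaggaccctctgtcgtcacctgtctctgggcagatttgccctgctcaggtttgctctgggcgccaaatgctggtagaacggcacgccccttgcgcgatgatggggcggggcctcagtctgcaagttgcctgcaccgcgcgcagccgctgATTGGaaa
Psmb6: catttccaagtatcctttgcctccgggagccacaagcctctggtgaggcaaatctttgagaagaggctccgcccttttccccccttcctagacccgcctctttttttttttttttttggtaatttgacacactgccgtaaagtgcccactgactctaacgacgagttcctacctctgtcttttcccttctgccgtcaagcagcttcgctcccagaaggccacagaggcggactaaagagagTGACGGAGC
Psmb3: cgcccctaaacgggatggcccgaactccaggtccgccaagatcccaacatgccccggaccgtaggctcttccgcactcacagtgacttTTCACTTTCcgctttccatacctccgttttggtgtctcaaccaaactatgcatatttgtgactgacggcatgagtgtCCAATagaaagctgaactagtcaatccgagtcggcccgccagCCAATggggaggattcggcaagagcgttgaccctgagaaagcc

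The capitals mark ATTGG, which is CCAAT read on the strand opposite to the gene, 8 to 4 bases before the start of Psmb9, TGACGGAGC 9 to 1 bases before that of Psmb6, and in Psmb3 TTCACTTTC at 162 to 154 and CCAAT at 85 to 81 and 43 to 39 bases. No marked matches overlapped in these windows. Promoters of 32 of the 37 genes were in the table, as 34 windows. TGACNNNGC was in 5 of them (Psmb5, Psmb6, Psmc6, Psmd9 and Psmd12), or 14.7%, against 10.2% of 32851 promoters of the same length. CCAAT was in 11, or 32.4% against 33.8%, GAAANNGAA in 3 (Psmb3, Psmd4 and Psmd9), or 8.82% against 7.13%, and TTCNNNGAA in 0 against 7.02%. These matches are letters in a window and were not tested as sites.

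The proteasome genes were compared with all genes by their range across the 4 arrays. Each gene is given as its normalized log2 intensity at the probe with the highest mean bead intensity, and the range is the highest minus the lowest of its 4 values. The median range was 0.46 over the 37 genes and 0.56 over all 8383 detected genes. The range was under 1.5-fold (0.58 on the log2 scale) in 23 of the 37, or 62.2%, against 53.3% of all genes, and at least 2-fold in 3 of the 37 (Psmc6, Psmd11 and Psmd5) against 1117 of 8383. The set holds more bright genes, however, with 21 of 37 at a mean bead intensity of 1000 or more against 1338 of 8383, and at like intensity its share was not higher throughout. At 1000 or more, 71.4% of proteasome genes had a range under 1.5-fold against 78.2% of all genes, from 300 to 1000 it was 83.3% (5 of 6) against 62.9%, and under 300 it was 30.0% (3 of 10) against 42.9%.

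Ranges were wider in dim probes, for proteasome genes and for all genes. The 21 proteasome genes with a mean bead intensity of 1000 or more had a median range of 0.29, against 0.37 over 1338 such genes. The 10 under 300 had a median of 0.83, against 0.64 over 5038. At 1000 or more, 39 mitochondrial ribosome genes had a median range of 0.29, 28 complex I genes 0.28 and 41 cytosolic ribosome genes 0.32. These medians lay near that of the proteasome genes, but the share under 1.5-fold was 92.3%, 78.6% and 92.7% in the same order, against the 71.4% of the proteasome set.

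**Figure D1:**
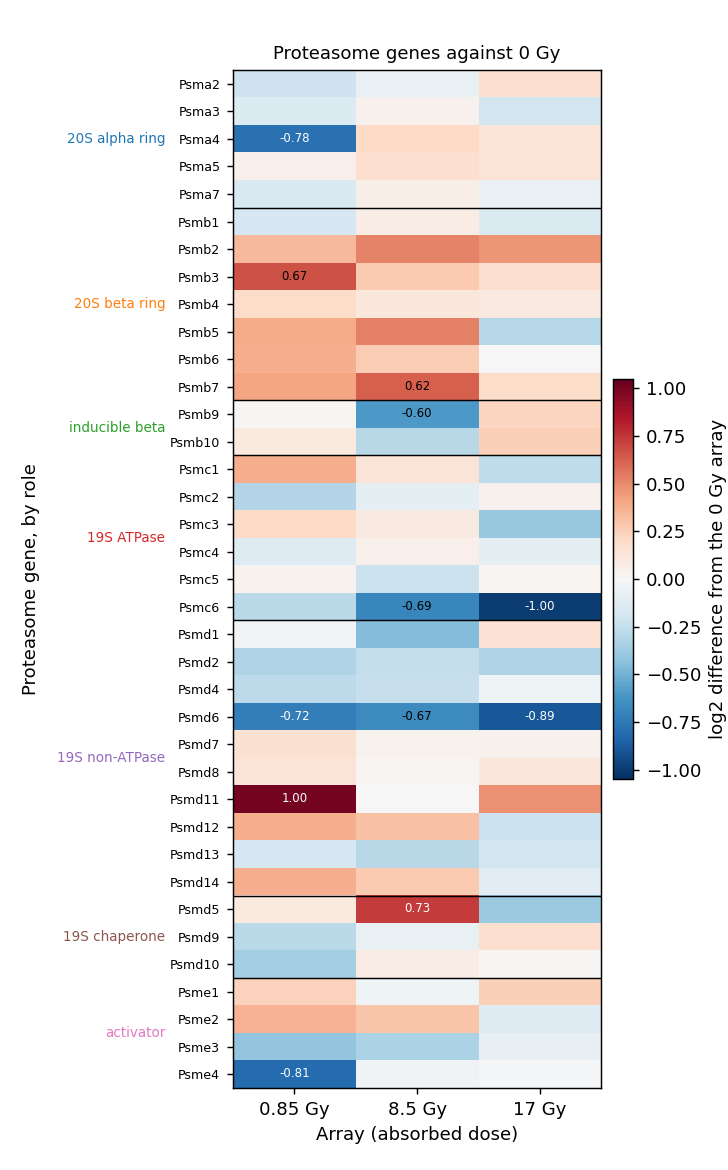
Log2 difference of each dosed array from the 0 Gy array for the 37 proteasome genes (rows, grouped by role; columns, dose), with the value printed where it is at least 1.5-fold. Most cells are pale, and 12 cells in 9 genes carry a value, from -1.0 for Psmc6 at 17 Gy to 1.0 for Psmd11 at 0.85 Gy.

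At 0.85 Gy the proteasome genes as a whole lay at the level of the 0 Gy array. The median log2 difference was 0.04 over the 37 genes and -0.01 over 7682 genes compared, with 20 proteasome genes positive and 17 negative. Over all genes 3785 were positive and 3857 negative. At least 1.5-fold higher were 2 of 37, Psmb3 and Psmd11, or 5.41%, against 9.37% of all genes. At least 1.5-fold lower were 3 of 37, Psma4, Psmd6 and Psme4, or 8.11%, against 12.7%. At least 2-fold higher was 1 gene, Psmd11, against a background of 1.78%, and 0 were 2-fold lower against 3.68%.

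At 8.5 Gy the median was 0.04 over the 37 genes and -0.04 over 7862 genes, with 22 of the 37 positive and 15 negative. Over all genes 3571 were positive and 4243 negative. Psmb7 and Psmd5 were at least 1.5-fold higher, 5.41% of the set against a background of 9.26%. Psmb9, Psmc6 and Psmd6 were at least 1.5-fold lower, 8.11% against 12.9%. None was 2-fold apart, where the backgrounds were 2.63% higher and 3.63% lower.

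At 17 Gy the median was 0.00 over the 37 genes and 0.00 over 7839 genes, with 18 of the 37 positive and 19 negative. Over all genes 3883 were positive and 3909 negative. None was 1.5-fold higher, against 5.06% of all genes, and Psmc6 and Psmd6 were 1.5-fold lower, 5.41% against 4.64%. Psmc6 was the only gene of the set at a 2-fold lower measured value (background 0.459%), and 0 were 2-fold higher (0.88%). With the main processing, the shares of the set past 1.5-fold were below the background in both directions at 0.85 and 8.5 Gy. At 17 Gy the share of lower genes was near it. This rested on few genes and did not hold in the authors' values at 0.85 Gy. There 2 of 37 (5.41%) were higher against 2.86% of all genes, and 2 lower against 5.23%. The set also holds more bright genes than the background.

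The set showed no common order by dose. Of 37 genes, 7 were highest at 0 Gy (background 24.8%), 12 at 0.85 Gy (27.9%), 11 at 8.5 Gy (22.2%) and 7 at 17 Gy (24.0%). As for the lowest value, it was at 0 Gy in 8 (22.2%), at 0.85 Gy in 11 (24.3%), at 8.5 Gy in 6 (31.0%) and at 17 Gy in 11 (20.9%). None was higher at every step of dose (2.02% of all genes were), and 1, Psmc6, was lower at every step (2.39%).

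**Figure D2:**
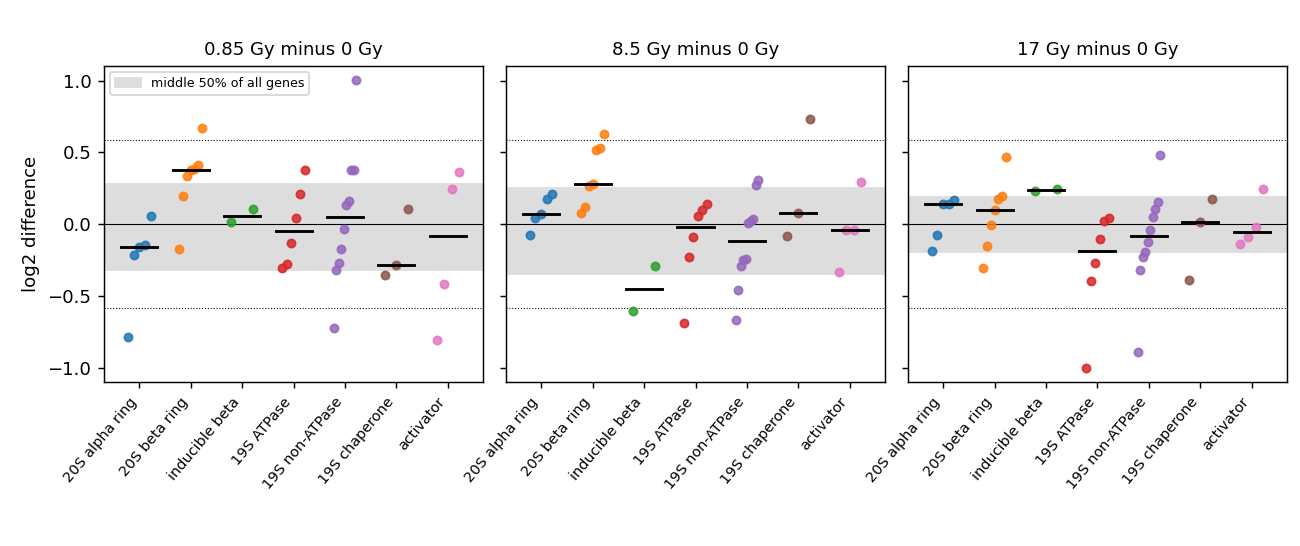
Log2 difference from 0 Gy of each proteasome gene (points) by role, with the role's median (black bar), at each dose. Dotted lines mark 1.5-fold and the grey band holds the middle 50% of all genes compared; the beta ring median lies above the band at 0.85 Gy (0.38) and 8.5 Gy (0.28), and the median of the 2 inducible beta genes lies below it at 8.5 Gy (-0.45), as does Psmb9 (-0.60) but not Psmb10 (-0.29).

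The 5 measured alpha ring genes, which form the outer rings, had medians of -0.16, 0.07 and 0.14 at 0.85, 8.5 and 17 Gy. Psma4 had normalized log2 intensities of 11.80 at 0 Gy, 11.02 at 0.85 Gy, 12.01 at 8.5 Gy and 11.94 at 17 Gy. It was thus low on the 0.85 Gy array alone, at -0.78 (1.72-fold lower), while the other arrays lay within 0.21 of 0 Gy. With scaling to the 75th percentile this difference was -0.57, under 1.5-fold. Psma5 stood at 11.89, 11.95, 12.07 and 12.04 in the same order, the narrowest range of the ring at 0.18. Psma2 and Psma3 had ranges of 0.39 and 0.23. Psma7 had a range of 0.23 at its main probe, with differences of -0.16, 0.07 and -0.08, but its other probe gave 0.42, 0.42 and 0.09.

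The 7 constitutive beta ring genes, which build the inner rings, were the role group farthest above 0 Gy at the lower doses. Their median was 0.38 at 0.85 Gy, 0.28 at 8.5 Gy and 0.10 at 17 Gy. Positive were 6, 7 and 4 of the 7 in order of dose. Over all genes compared it was 3785 of 7682, 3571 of 7862 and 3883 of 7839. Psmb3, a structural beta subunit, had levels of 11.63, 12.30, 11.90 and 11.80, and was highest at 0.85 Gy, 1.59-fold over 0 Gy. Psmb7, which carries the trypsin-like site, had levels of 10.88, 11.29, 11.50 and 11.07, and was highest at 8.5 Gy, 1.54-fold over 0 Gy. One of its other detected probes gave 0.40, 0.65 and 0.03 and the other -0.29, -0.08 and -0.07, so the probes disagree. The mean over its probes at 8.5 Gy was 0.40 and the authors' normalized value 0.56, both under 1.5-fold.

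Psmb5, which carries the chymotrypsin-like site, had levels of 6.57, 6.96, 7.10 and 6.27, the widest range of the ring at 0.83, from bead intensities of 147 to 223. It was higher at 0.85 and 8.5 Gy and lower at 17 Gy than at 0 Gy. Psmb6, which carries the caspase-like site, had levels of 11.11, 11.49, 11.37 and 11.10, so that the 0 and 17 Gy arrays were level. Psmb2 had 11.72, 12.06, 12.24 and 12.19, with every dosed array above 0 Gy. Its other detected probe gave 0.29, 0.10 and -0.14, against 0.34, 0.52 and 0.47 at the first. Psmb4 had the narrowest range of the ring at 0.20, with 12.34, 12.53, 12.46 and 12.43. Psmb1 was the exception at 0.85 Gy, at -0.17.

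The beta ring median at 0.85 and 8.5 Gy stood beside those of other large assemblies. Mitochondrial ribosome genes had medians of 0.22, 0.27 and 0.03 over 67 genes in order of dose, and complex I genes 0.24, 0.16 and -0.07 over 32. Cytosolic ribosome genes had 0.05 over 51 genes, -0.05 over 53 and -0.06 over 51. Whether the beta ring differs from these was not tested.

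**Figure D3:**
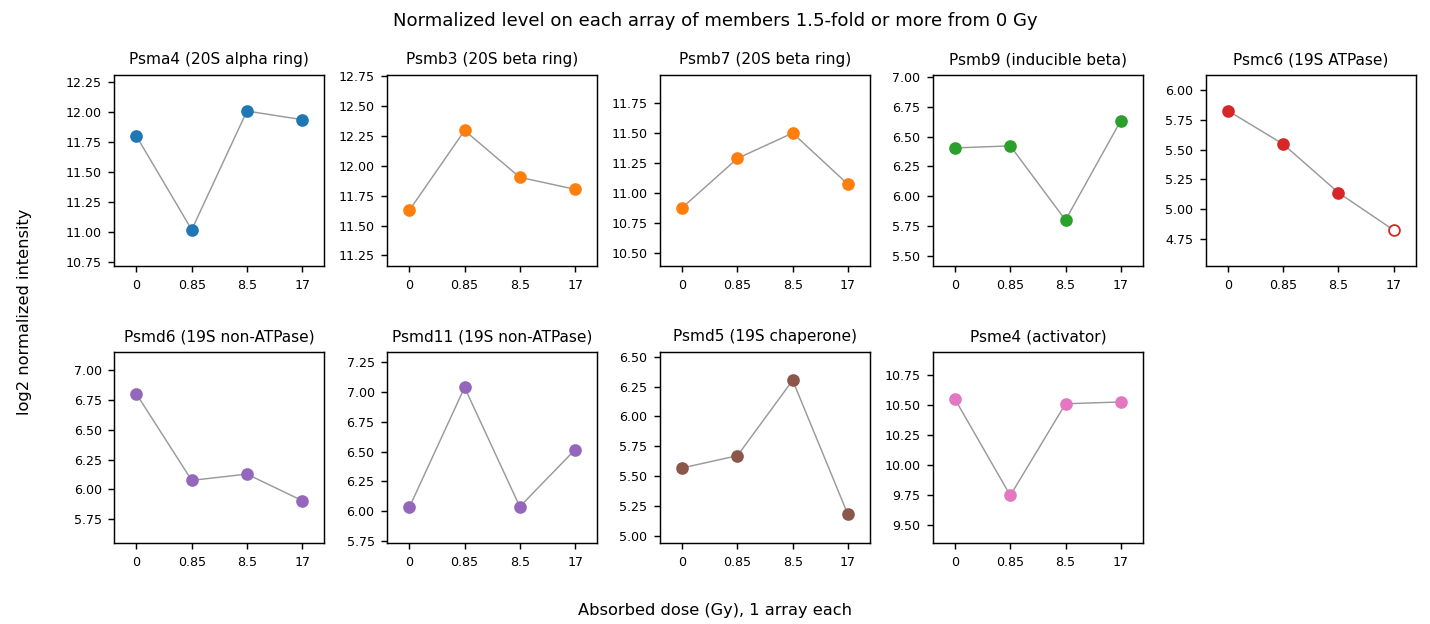
Normalized log2 intensity on each of the 4 arrays (x axis, absorbed dose in Gy) for the 9 proteasome genes at least 1.5-fold from 0 Gy at any dose, with every y axis spanning the same number of log2 units. An open circle marks an undetected value (Psmc6 at 17 Gy); Psma4 and Psme4 are low at 0.85 Gy alone and Psmb9 at 8.5 Gy alone.

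The inducible beta genes Psmb9 and Psmb10 were lowest on the 8.5 Gy array and highest on the 17 Gy array. Psmb9, which replaces the product of Psmb6 in the immunoproteasome, had levels of 6.40, 6.42, 5.80 and 6.63. Its bead intensities were 147, 180, 139 and 168, close to background, and its difference at 8.5 Gy was -0.60 (1.52-fold lower), against -0.34 in the authors' normalized values. Psmb10, which replaces the product of Psmb7, had levels of 9.79, 9.89, 9.49 and 10.04. Its differences were 0.10, -0.29 and 0.25, and its other probe gave 0.14, -0.21 and 0.18, so both probes placed 8.5 Gy lowest and 17 Gy highest.

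Set against the constitutive partner on the same array, both inducible genes were lower at 8.5 Gy than at 0 Gy. This comparison was chosen after the values were seen and is a description. The log2 ratio of Psmb9 to Psmb6 differed from that at 0 Gy by -0.36 at 0.85 Gy, -0.87 at 8.5 Gy and 0.23 at 17 Gy. That of Psmb10 to Psmb7 differed by -0.31, -0.92 and 0.05. Over the 6 pairs of detected Psmb10 and Psmb7 probes, the change at 8.5 Gy ran from -0.94 to -0.13, negative in each, while at 0.85 Gy it ran from -0.31 to 0.43. At 8.5 Gy the Psmb9 ratio was -0.54 without background correction.

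The activator genes split. Psme1, which encodes the alpha chain of the interferon-inducible activator ring, had levels of 10.55, 10.79, 10.50 and 10.79, with 0.85 and 17 Gy above 0 Gy and 8.5 Gy level with it. Its other probe gave 0.08, -0.06 and 0.18. Psme2, which encodes the beta chain of the same ring, had 8.33, 8.69, 8.62 and 8.19, with 8.5 Gy above 0 Gy. Over Psmb9, Psmb10, Psme1 and Psme2 the median was 0.17 at 0.85 Gy, -0.17 at 8.5 Gy and 0.24 at 17 Gy.

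Psme3, which encodes the nuclear activator that interferon does not induce, had levels of 9.26, 8.84, 8.93 and 9.17, highest at 0 Gy. Psme4, which encodes the large activator PA200, had 10.55, 9.74, 10.51 and 10.53. It was low on the 0.85 Gy array alone, at -0.81 (1.75-fold lower), with the other arrays within 0.04 of each other.

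Genes of the interferon gamma response and of peptide loading gave values beside these. Of 9 such genes with a probe, 8 were detected on at least 1 array (Erap1 was not), and their medians were 0.37 at 0.85 Gy, -0.60 at 8.5 Gy (-0.56 with Tap1 at its bound) and 0.25 at 17 Gy. At 8.5 Gy 3 of 8 were at least 1.5-fold lower, or 4 with Tap1 at its measured value, and 0 higher, where 12.9% of all genes were lower and 9.26% higher. H2-D1, a class I heavy chain gene, had differences of 1.06, -1.18 and -0.03, and Nlrc5, the transactivator of class I genes, -0.51, -1.12 and 0.40. Tap1, a peptide transporter gene that neighbours Psmb9, was detected at 0, 0.85 and 17 Gy and at least 1.47-fold lower at 8.5 Gy, where it was not well above background. Tapbp, which encodes the peptide-loading factor tapasin, had 1.23, 0.49 and 1.11.

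Markers of immune cells also differed between these arrays. All 7 macrophage markers with a probe were detected on every array, with summed bead intensities of 1910, 3158, 2180 and 3194 and medians of 0.24, -0.22 and 0.84. Of 6 dendritic and class II markers, 3 were detected, with medians of -0.01, -0.23 and 0.85, and H2-Aa, Itgax and Flt3 were undetected throughout. Of 8 T and B cell markers, 2 were detected on 1 array each, Cd79b at 0.85 Gy and Cd3g at 17 Gy, and the defining genes Cd3e, Cd3d, Cd8a, Cd4, Cd79a and Ms4a1 were undetected. Endothelial markers had medians of -0.21, -0.71 and -0.45 over 4 detected of 5. The part of these cells, and of muscle RNA at 8.5 Gy, in the values of the inducible genes was not tested.

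**Figure D4:**
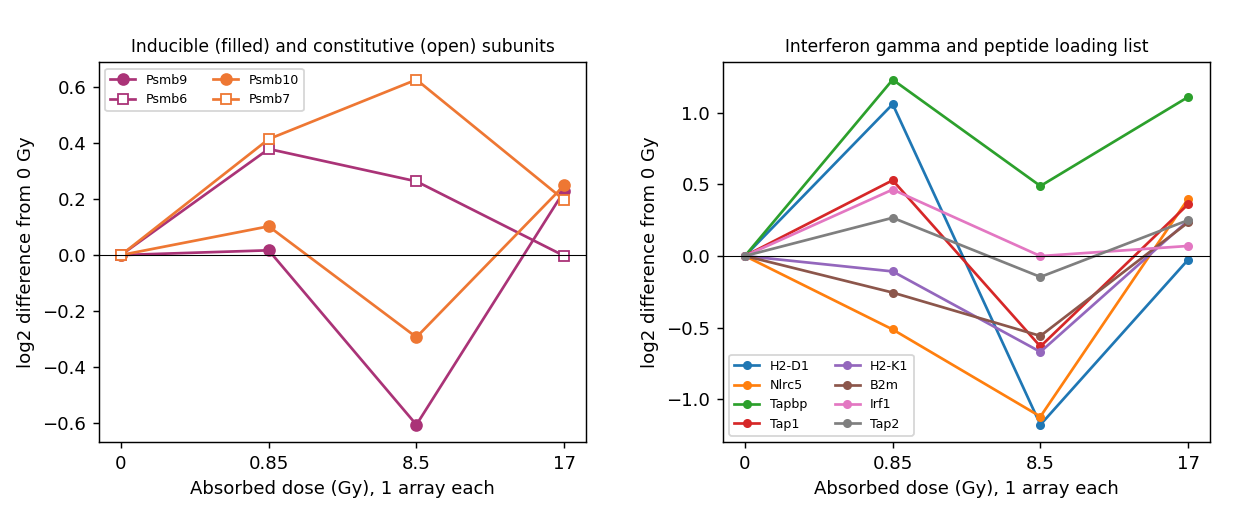
Log2 difference from the 0 Gy array at each absorbed dose for the inducible genes Psmb9 and Psmb10 and their constitutive partners Psmb6 and Psmb7 (left) and for the 8 detected genes of the interferon gamma and peptide loading list (right). Psmb9 and Psmb10 dip at 8.5 Gy (-0.60 and -0.29) where Psmb6 and Psmb7 do not (0.26 and 0.62).

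The 6 ATPase genes of the regulatory particle had medians of -0.05, -0.02 and -0.19. Psmc6 lay close to background, with bead intensities of 122, 135, 118 and 100 and levels of 5.83, 5.55, 5.14 and 4.83. It was lower on each array of higher dose, at -0.28, -0.69 and -1.0, but was not well above background at 17 Gy, where it was at least 1.76-fold lower. In the authors' normalized values its differences at 8.5 and 17 Gy were -0.32 and -0.46, under 1.5-fold. Psmc4 had levels of 11.15, 11.02, 11.21 and 11.05, the narrowest range of the group at 0.19. Psmc1 and Psmc3 were highest at 0.85 Gy and lowest at 17 Gy, with ranges of 0.65 and 0.61. Psmc2 had a range of 0.35 and was lowest at 0.85 Gy. Psmc5 had differences of 0.04, -0.23 and 0.02 at its main probe and 0.55, 0.18 and -0.45 at its other.

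The 10 measured non-ATPase subunit genes of the regulatory particle had medians of 0.05, -0.12 and -0.08. Psmd11, a scaffold subunit whose raised level has been linked to high proteasome activity in human stem cells, had levels of 6.03, 7.04, 6.04 and 6.52, from bead intensities of 130, 231, 149 and 160. It was 2.01-fold higher at 0.85 Gy and 0.48 above 0 Gy at 17 Gy. Its other detected probe gave 0.81, 0.64 and 0.32, higher at 0.85 Gy like the first but also at 8.5 Gy, where the first gave 0.01. Without background correction the difference at 0.85 Gy was 0.55.

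Psmd6, a scaffold subunit, was lower on every dosed array at its brighter probe but not at the other. The brighter probe had levels of 6.80, 6.08, 6.13 and 5.91, from bead intensities of 171, 159, 153 and 131. Its differences were -0.72, -0.67 and -0.89. In the authors' normalized values they were -0.44, -0.41 and -0.53, under 1.5-fold at each dose. The other probe was not well above background at 0 Gy, with bead intensities of 92, 123, 126 and 104, and gave bounds of at least 1.03-fold higher at 0.85 Gy and at least 1.22-fold higher at 8.5 Gy, with no fold at 17 Gy. The fall at the brighter probe was thus not seen at the other probe at 0.85 or 8.5 Gy.

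The other non-ATPase genes lay closer to 0 Gy. Psmd12 and Psmd14, the latter encoding the deubiquitinase of the lid, were both at 0.38 at 0.85 Gy. They were at 0.31 and 0.27 at 8.5 Gy and at -0.23 and -0.12 at 17 Gy. The other detected Psmd12 probe gave 0.50, -0.03 and -0.46 in order of dose. Psmd1, which encodes a large base subunit, was lowest at 8.5 Gy, at -0.46. Psmd4, which encodes a ubiquitin receptor, had a range of 0.27 and Psmd13 0.29, each highest at 0 Gy. Psmd2 had a range of 0.32 and was also highest at 0 Gy. It lay close to background, however, with bead intensities of 112, 123, 121 and 108. Psmd8 had levels of 7.65, 7.79, 7.67 and 7.76, and its range of 0.14 was the narrowest of all 37 genes. Psmd7 had a range of 0.16 at its main probe, but its other probe gave 0.29, 0.78 and -0.07.

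The genes of the chaperones that assemble the base had medians of -0.28, 0.08 and 0.02. Psmd5 had bead intensities of 114, 140, 162 and 108 and levels of 5.57, 5.67, 6.30 and 5.18, and was high on the 8.5 Gy array alone, 1.66-fold over 0 Gy, against 0.40 on the log2 scale in the authors' values. Psmd9 had a range of 0.46, from bead intensities of 124 to 139. Psmd10, which encodes gankyrin, had levels of 9.59, 9.24, 9.67 and 9.61. Its main probe gave differences of -0.35, 0.08 and 0.02. Its other probes gave 0.34, 0.85 and -0.27, and -0.01, -0.09 and 0.08, so its probes disagree at 0.85 and 8.5 Gy.

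**Figure D5:**
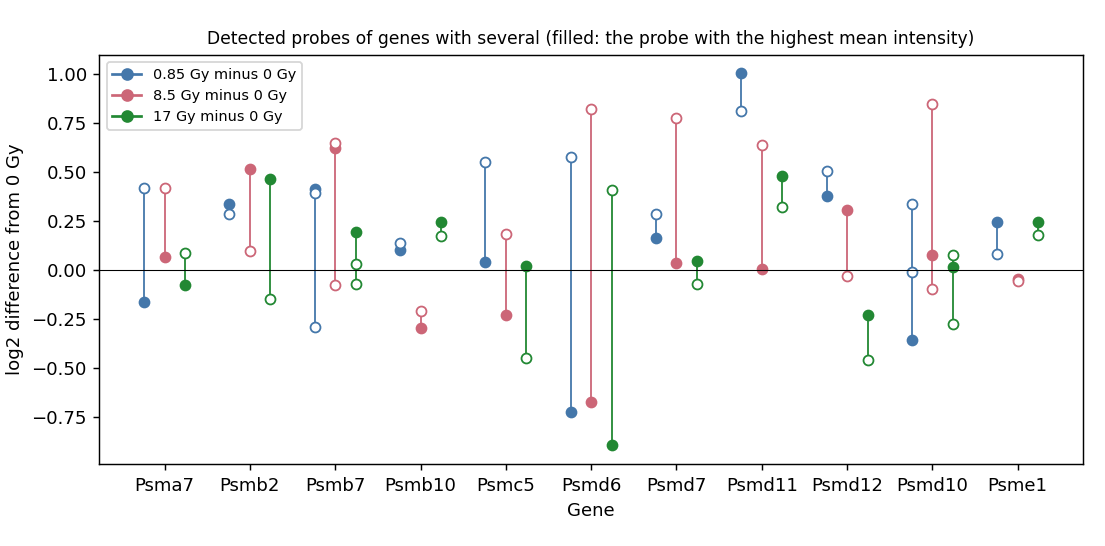
Log2 difference from 0 Gy at every detected probe of the 11 proteasome genes with several (x axis, gene; colour, dose; filled circles, the probe with the highest mean bead intensity). Psmb10 and Psme1 probes lie close together at each dose, while those of Psmd6 have opposite signs, with its other probe (undetected at 0 Gy) drawn at its measured values.

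Probes of 1 gene gave a measure of spread that does not need replicate arrays, although it covers differences between transcripts and probes and not between animals. Over the 11 proteasome genes with several detected probes, the SD of log2 differences within a gene was 0.37 at 0.85 Gy, 0.46 at 8.5 Gy and 0.32 at 17 Gy. Over all genes with several it was 0.40 (1844 genes), 0.42 (1920) and 0.30 (1882). The difference from 0 Gy was no larger than that SD over all genes in 30, 29 and 29 of the 37 proteasome genes in order of dose, against 62.2%, 64.3% and 67.3% of all genes compared. The set is brighter, with 21 of 37 at a mean bead intensity of 1000 or more against 1338 of 8383. These shares were not compared at like intensity. Psmb10 and Psme1 had probes within 0.16 of each other at every dose.

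Other genes of the pathway were taken from lists. Probes were found for 8 of 13 assembly and associated names and 7 of 8 transcription and processing names. For ubiquitin and shuttle names it was 5 of 12. Of 8 assembly and associated factors with a probe, all detected, the medians were 0.04, -0.05 and -0.03, with 1 higher and 1 lower by 1.5-fold at 0.85 Gy and at 8.5 Gy and none at 17 Gy. Usp14, a deubiquitinase of the proteasome, was at -0.87, -0.82 and -0.16, and Psmg2, an assembly chaperone of the alpha ring, at 0.59, 0.76 and 0.52. Pomp, the maturation factor of the core, was at -0.21, -0.37 and -0.01.

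Of the transcription and processing genes, 5 of 7 with a probe were detected, with medians of -0.06, 0.04 and -0.30. Nfe2l1, whose product activates proteasome genes when proteasome activity is low, was at 0.11, -0.15 and -0.30. Nfe2l2, which encodes the factor of the oxidative response, was at 0.13, 0.61 and -0.18, and Vcp, the unfoldase that delivers substrates, at -0.55, -0.26 and -0.52. Nfyb, a subunit gene of NF-Y, was at -0.60, 0.04 and -0.79. Of 5 ubiquitin and shuttle genes with a probe, 3 were detected, with medians of 0.02, 0.24 and 0.21, and 1 of them, the shuttle gene Rad23b, was 1.5-fold higher at 0.85 Gy (0.75).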

How the data were processed

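Bead intensities and detection p-values were read for 4 arrays, 1 for each absorbed dose. RNA, per the labels' protocols, was extracted with a kit for lipid tissue, checked on a Bioanalyzer and labelled with biotin. The authors deposited non-normalized intensities on the linear scale with detection p-values, and normalized intensities whose sorted values are the same on all 4 arrays, from which quantile normalization was inferred. The software behind both was not given in the sources used here. A deposited value table equals the normalized intensities (100.0% of values, to 6 digits).

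The non-normalized intensities of 26512 probes were corrected and normalized by the neqc function (limma 3.58.1, R 4.3.3; background from the detection p-values, offset 16, quantile normalization, log2). Of 25697 probes in the value table, 23978 had 1 symbol, 0 several and 1719 none, from the platform annotation. Entrez identifiers of 23962 were in the mouse gene table, and 0 symbols differed. A gene was represented by its probe with the highest mean intensity, and entered a comparison if detected (p under 0.01) on either array. Past 1.5-fold is the call. Where 1 array was undetected, the fold is a bound against the higher of the dim value and the lowest detected value there. No test was possible with 1 array a dose, and slide and scan date were not given. The self-test on simulated data covered the normalization only, with changes placed in probes well above background, so dim probes were not covered. Probe choice, the detection filter and the bounds were not simulated. Role groups, lists and the rule for named genes (genes past 1.5-fold, the inducible and activator genes, the widest and narrowest range of each role, genes with disagreeing probes, and up to 4 of each other list) were chosen with earlier results of these data known. Other members are named by range. Python 3.11.15, numpy 2.4.6, pandas 2.3.3 and matplotlib 3.10.9 were used. The number of arrays limits the precision.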

Additional observations from a re-analysis of the deposited data

How the results depend on the processing

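Values were recomputed under up to 9 alternatives (up to 8 at 8.5 Gy, where normalizing without that array gives no value). The medians and counts over all proteasome genes were also taken over the brighter genes only (mean bead intensity of 300 or more, chosen after seeing the data). The medians over all proteasome genes and over Psmb9, Psmb10, Psme1 and Psme2 moved by no more than 0.1 log2 under those run. Counts past 1.5-fold did move. Without background correction there was 1 gene higher at 0.85 Gy and 1 at 8.5 Gy, and 0 lower at 8.5 and 17 Gy. In the authors' values 0 were higher and 0 lower at 8.5 Gy and 0 lower at 17 Gy. With an offset of 50 there was 1 higher and 0 lower at 8.5 Gy and 1 lower at 17 Gy. With the mean of all detected probes there was 1 higher at 8.5 Gy and 1 lower at 17 Gy, and with detection on all 4 arrays 1 lower at 17 Gy, where Psmc6 drops out. The brighter genes alone gave 1 higher at 0.85 Gy, 1 higher and 0 lower at 8.5 Gy, and 0 lower at 17 Gy.

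The share of all genes past 1.5-fold also fell in the authors' values, without background correction and with an offset of 50. At 0.85 Gy the shares of all genes higher were 2.86%, 2.40% and 3.89% in the same order. Of the 37 proteasome genes, 2, 1 and 2 were higher there. At 8.5 Gy the shares of all genes were 3.54%, 3.03% and 4.54% higher and 4.96%, 4.26% and 6.39% lower in that order. At 17 Gy 0.574%, 0.459% and 1.01% of all genes were lower. With the mean of all detected probes, 9.16% were higher at 8.5 Gy and 4.11% lower at 17 Gy. With detection on all 4 arrays 2.86% were lower at 17 Gy. No share over all genes was taken for the brighter genes alone. Such small counts are not read as a result about the set. With scaling to the 75th percentile the beta ring medians were 0.53 at 0.85 Gy and 0.43 at 8.5 Gy, and the change of the Psmb9 to Psmb6 ratio was -0.51 and -1.0. At 8.5 Gy that ratio changed by -0.59 in the authors' values, -0.54 without background correction and -0.66 with an offset of 50, and at 17 Gy by 0.13 without background correction. With the mean of all detected probes the Psmb10 to Psmb7 ratio changed by -0.051, -0.65 and 0.16 in order of dose, and Psmd6 at 8.5 Gy turned to 0.076, with its second probe, undetected at 0 Gy, at its measured value. Of 569 recomputed values of named genes, 558 moved by less than the spread between probes of a gene, 10 moved by more and 1 reversed. Many of the 558 could not move, since the detection settings change which genes enter and not a gene's value. The mean of all detected probes likewise leaves a gene with 1 detected probe unchanged. The 558 therefore overstate how stable the values were. Beyond these constructions the cause was not tested. The dim probes limit the set: without Psmc6, Psmd6, Psmd5, Psmd11 and Psmb9, all under 300, the genes past 1.5-fold are Psma4, Psmb3, Psmb7 and Psme4. All comparisons share 1 control array. No paired analysis was possible because each dose has 1 array.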
